A study of Homo sapiens with 12 samples.

Results

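The 10 genes of the CXC chemokine family described here were measured in cytoplasmic RNA of U2OS cells: CXCL1, CXCL2, CXCL3, CXCL5, CXCL6, CXCL8, CXCL10, CXCL11, CXCL12 and CXCL16. Their probes were found by the RefSeq accession that the array design gives each probe, which yielded 16 of 34127 gene probes and at least 1 probe for each of the 10 genes. Of these 16 probes, 10 were well above background, by the flag of the scanner software, on all 3 arrays of at least 1 siRNA. They belong to 7 genes (CXCL1, CXCL2, CXCL3, CXCL5, CXCL8, CXCL12 and CXCL16), each of which has a probe above background on all 12 arrays. CXCL6, CXCL10 and CXCL11 were left untested, because they came up as background on nearly every array.

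CXC chemokines are small secreted proteins that steer leukocytes through G protein-coupled receptors. CXCL1, CXCL2, CXCL3, CXCL5, CXCL6 and CXCL8 attract neutrophils through CXCR1 and CXCR2, CXCL10 and CXCL11 attract activated T cells through CXCR3, CXCL12 retains and guides cells through CXCR4, and CXCL16 is a membrane-anchored ligand of CXCR6. In stromal and tumour cells the neutrophil-attracting ligands are classical targets of interleukin 1, TNF and NF-kappaB, and their mRNAs are short-lived.

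U2OS cells, a human osteosarcoma line, received 20 nM of control siRNA or of siRNA against DBP5, GLE1 or IPPK, and cytoplasmic RNA was taken after 48 h of culture. DBP5 is the RNA helicase of the nuclear pore made from DDX19B and DDX19A, GLE1 stimulates it, and IPPK is the kinase that makes its cofactor inositol hexakisphosphate. The methods list more than 1 siRNA for some of the targets and do not say which was used for the arrays. There are 12 arrays, 3 per siRNA, and the arrays that carry the same replicate number shared 1 of 3 slides. Each siRNA always had the same position on the slide, so position and siRNA cannot be told apart. Levels below are log2 intensities after subtraction of the local background and normalization between arrays. That normalization aligns the arrays with each other, so each rise or fall is relative to the other probes and not an amount per cell. A loss of cytoplasmic mRNA shared by most genes would not show. Between 70.9% and 77.7% of the gene probes of an array were well above background, and the number of arrays limits the precision. In bulk RNA such as this, fewer cells that express a gene and less RNA per cell cannot be told apart.

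Each siRNA target was low in its own knock-down. DDX19B was at 10.24, 10.13 and 10.14 on the control arrays and at 6.25, 6.19 and 6.19 after DBP5 siRNA. GLE1 was at 8.30, 8.32 and 8.27 on the control arrays and at 5.43, 4.86 and 4.73 after GLE1 siRNA. IPPK was at 9.33, 9.42 and 9.46 on the control arrays and at 6.95, 6.94 and 7.04 after IPPK siRNA. In each case the 3 knock-down arrays lay below the 3 control arrays, and the genes fell by 3.96 for DDX19B (limma adjusted p 5.8e-11), by 3.29 for GLE1 (limma adjusted p 2.2e-08) and by 2.43 for IPPK (limma adjusted p 1.4e-09) on the log2 scale. DBP5 siRNA also lowered the cytoplasmic mRNA of IPPK, which fell by 1.25 (limma adjusted p 8.2e-08), and that of the second DBP5 gene DDX19A, which fell by 4.20 (limma adjusted p 3.5e-11), while GLE1 differed by -0.37 and did not pass (limma adjusted p 0.0647). The other siRNAs lowered these mRNAs too. After GLE1 siRNA, DDX19B fell by 1.01 (limma adjusted p 9.1e-08), DDX19A by 0.85 (limma adjusted p 1.5e-07) and IPPK by 0.26 (limma adjusted p 0.00380), though IPPK with the mean of its probes was 0.41 higher and its call ended under the methods' paired test. After IPPK siRNA, DDX19A fell by 1.73 (limma adjusted p 2.7e-09), GLE1 by 0.49 (limma adjusted p 0.0186) and DDX19B by 0.20 (limma adjusted p 0.0126). These last calls ended without IPPK replicate 1 for GLE1 (limma adjusted p 0.0592) and, for DDX19B, with normexp, in the authors' values and without control replicate 1 (limma adjusted p 0.123, 0.0564 and 0.0540).

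The neutrophil-attracting members sit together on chromosome 4, in the order CXCL8, CXCL6, CXCL1, CXCL5, CXCL3 and CXCL2, with CXCL10 and CXCL11 further along it. CXCL12 lies on chromosome 10 and CXCL16 on chromosome 17. To show which letters these neighbours share, the 150 bases before the start of 7 genes are printed 5′ to 3′ from the RefSeq promoter table (build GRCh38.p14), which has an entry for 9 of the 10 members and none for CXCL16. Capitals mark matches to GGAATTTCC, letters of the kind that NF-kappaB binds, and to TGANTCA, letters of the kind that AP-1 binds. Both were searched on both strands, do not overlap in these genes, and were chosen after the sequences had been read. CXCL12 is shown as the gene without a match.
CXCL8, chr4:73740419-73740568, plus strand: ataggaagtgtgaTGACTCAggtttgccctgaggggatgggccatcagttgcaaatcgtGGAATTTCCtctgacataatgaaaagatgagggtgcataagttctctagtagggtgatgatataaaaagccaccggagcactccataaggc
CXCL1, chr4:73869243-73869392, plus strand: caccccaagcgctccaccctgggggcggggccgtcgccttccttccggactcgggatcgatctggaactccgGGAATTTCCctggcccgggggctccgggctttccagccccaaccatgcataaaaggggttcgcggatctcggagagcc
CXCL2, chr4:74099196-74099345, minus strand: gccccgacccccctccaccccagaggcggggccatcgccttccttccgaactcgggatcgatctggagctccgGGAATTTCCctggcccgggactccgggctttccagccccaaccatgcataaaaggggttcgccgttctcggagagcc
CXCL3, chr4:74038690-74038839, minus strand: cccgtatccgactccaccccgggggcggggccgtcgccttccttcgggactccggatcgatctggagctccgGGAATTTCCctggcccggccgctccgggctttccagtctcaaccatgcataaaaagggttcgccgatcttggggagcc
CXCL5, chr4:73998678-73998827, minus strand: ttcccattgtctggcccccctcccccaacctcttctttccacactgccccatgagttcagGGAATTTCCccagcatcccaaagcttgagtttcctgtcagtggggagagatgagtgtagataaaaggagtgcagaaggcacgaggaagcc
CXCL6, chr4:73836528-73836677, plus strand: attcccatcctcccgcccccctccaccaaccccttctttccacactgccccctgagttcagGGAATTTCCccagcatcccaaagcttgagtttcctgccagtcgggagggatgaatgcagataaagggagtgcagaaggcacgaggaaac
CXCL12, chr10:44385098-44385247, minus strand: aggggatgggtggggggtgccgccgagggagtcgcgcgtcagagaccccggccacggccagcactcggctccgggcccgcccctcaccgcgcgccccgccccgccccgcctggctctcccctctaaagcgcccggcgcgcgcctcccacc

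Within 250 bases before the start, GGAATTTCC on either strand was present in 8 of the 9 members with an entry, against 145 of 35116 promoters of the same length (0.413%). The letters were chosen after these sequences had been read, and some of these promoters share long stretches. The counts here are therefore no test against the other promoters. Its first base stood 78 bases before the start in CXCL1 and CXCL3, 77 in CXCL2, 90 in CXCL5, 89 in CXCL6 and 91 in CXCL8. CXCL10 and CXCL11 carry the other strand's letters, GGAAATTCC, 176 and 75 bases before the start. TGANTCA was present in CXCL8 and CXCL11, 137 and 87 bases before the start, against 2308 of the 35116 promoters (6.57%). The promoters of CXCL2 and CXCL3 share an unbroken stretch of 37 bases that holds GGAATTTCC, and those of CXCL5 and CXCL6 share 45 bases that hold it. CXCL1 and CXCL2 share 42 bases outside it, and CXCL8 shares no more than the 9 letters of the motif with CXCL1, CXCL2, CXCL3 or CXCL5. A match describes letters in a window, and factor binding was not measured here.

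Against control siRNA, the members that fell were neutrophil-attracting ligands, though CXCL8 did not fall after GLE1 siRNA and CXCL1 did not pass after IPPK siRNA. CXCL8 had the largest fall of the 7 tested members after DBP5 siRNA, CXCL3 after GLE1 siRNA and CXCL5 after IPPK siRNA. CXCL16 was higher in each knock-down. After DBP5 siRNA, 5 of the 7 were lower and 1 was higher, where 27.1% of the 20821 genes tested were lower and 27.3% higher by the same limma threshold of 0.05. After GLE1 siRNA, 4 of the 7 were lower and 1 was higher, where 30.4% of genes were lower and 32.1% higher. CXCL12 is counted by its brightest probe, which did not pass there. Its probes gave different results, and that for NM_199168 rose by 2.24 after GLE1 siRNA (limma adjusted p 9.4e-09). After IPPK siRNA, 4 were lower and 1 was higher, where 28.2% of genes were lower and 27.3% higher. The median log2 difference from control over the 7 genes was -0.70 for DBP5, -0.26 for GLE1 and -0.43 for IPPK siRNA, beside -0.02, 0.03 and -0.03 over all genes tested. The normalization itself keeps the medians over all genes small and the shares lower and higher similar. These 3 comparisons share the control arrays. The adjusted p-values measure the spread between these arrays, which the methods describe as independent experiments.

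**Figure D1:**
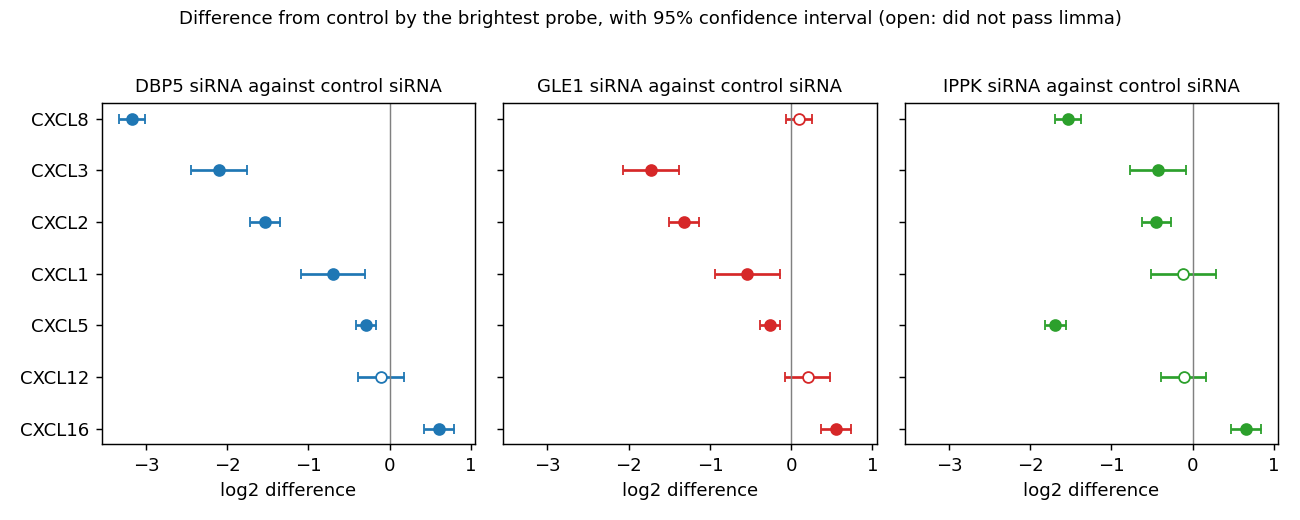
Log2 difference from control siRNA (horizontal axis) for the 7 CXC chemokine genes tested, by the brightest probe, with limma's 95% confidence interval (n = 3 arrays per siRNA). Open points did not pass limma: CXCL8 lies at -3.17 after DBP5 siRNA and at 0.10, open, after GLE1 siRNA, while CXCL5 is lowest after IPPK siRNA, at -1.69. The other probes of CXCL12, which gave different results, are not shown here.

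CXCL8 (interleukin 8, NM_000584), the main neutrophil attractant of the family, was at 9.69, 9.70 and 9.73 on the control arrays. It was at 6.59, 6.53 and 6.48 after DBP5 siRNA. It was at 8.11, 8.23 and 8.17 after IPPK siRNA and at 9.65, 9.95 and 9.82 after GLE1 siRNA. The DBP5 arrays were the lowest and the IPPK arrays stood between them and control with no overlap, while the GLE1 arrays overlapped the control arrays. CXCL8 was 9.03-fold lower after DBP5 siRNA, a log2 difference of -3.17 (95% interval -3.34 to -3.01, limma adjusted p 1.1e-09, 3 of 3 arrays). After IPPK siRNA it was 2.91-fold lower, at -1.54 (-1.70 to -1.38, limma adjusted p 4.3e-08, 3 of 3 arrays). After GLE1 siRNA the difference was 0.10 (-0.06 to 0.26, limma adjusted p 0.269). Within slides 1, 2 and 3 the DBP5 difference was -3.09, -3.17 and -3.26, and the IPPK difference was -1.58, -1.48 and -1.57. Without GLE1 replicate 1, the GLE1 difference was 0.18 and passed the threshold (limma adjusted p 0.0307).

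The knock-downs differed from each other in CXCL8 by a direct test. It was 9.67-fold higher after GLE1 than after DBP5 siRNA (log2 difference 3.27, limma adjusted p 7.6e-10). It was 3.11-fold higher after GLE1 than after IPPK siRNA (1.64, limma adjusted p 2.3e-08). Between DBP5 and IPPK siRNA the difference was -1.64 (limma adjusted p 6.1e-08), lower after DBP5 siRNA. The order of CXCL8 levels was therefore DBP5, IPPK, then control and GLE1, which did not differ beyond their spread. 

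CXCL3 (NM_002090), a ligand of CXCR2, was at 8.03, 8.03 and 8.00 on the control arrays. It was at 6.05, 6.24 and 5.47 after DBP5 siRNA and at 6.21, 6.34 and 6.36 after GLE1 siRNA. It was at 7.52, 7.66 and 7.60 after IPPK siRNA. The DBP5 and GLE1 arrays overlapped each other and lay far below control, and the IPPK arrays lay just below control with no overlap. CXCL3 was 4.28-fold lower after DBP5 siRNA (-2.10, 95% interval -2.44 to -1.75, limma adjusted p 1.3e-06) and 3.29-fold lower after GLE1 siRNA (-1.72, -2.07 to -1.37, limma adjusted p 3.4e-06), in 3 of 3 arrays each. Within slides 1, 2 and 3 these differences were -1.97, -1.79 and -2.53 for DBP5 and -1.82, -1.70 and -1.64 for GLE1 siRNA. After IPPK siRNA, CXCL3 was 1.34-fold lower (-0.43, -0.77 to -0.08, limma adjusted p 0.0381, within slides -0.50, -0.37 and -0.41).

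That last call for CXCL3 was near the threshold. It ended with no filter on dim probes (limma adjusted p 0.0552) and without control replicate 1, 2 or 3 (0.0820, 0.0841 and 0.0747), GLE1 replicate 2 or 3 (0.0510 and 0.0501) or IPPK replicate 1, 2 or 3 (0.0973, 0.0591 and 0.0780), as limma adjusted p. In the authors' values, which lack background subtraction, the falls of CXCL3 were smaller, at -1.32 after DBP5 and -1.13 after GLE1 siRNA, and passed. GLE1 and DBP5 siRNA differed by 0.38 in CXCL3 (0.03 to 0.72), which did not pass (limma adjusted p 0.0630) but did under 75th percentile scaling (0.0451) and without DBP5 replicate 2 (0.0100).

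CXCL2 (NM_002089), a ligand of CXCR2 like CXCL3, was at 7.80, 7.79 and 7.82 on the control arrays by its brighter probe. It was at 6.38, 6.35 and 6.08 after DBP5 siRNA and at 6.39, 6.50 and 6.56 after GLE1 siRNA. It was at 7.33, 7.45 and 7.30 after IPPK siRNA. The control arrays were the highest, the IPPK arrays came next, and the DBP5 and GLE1 arrays were low, with each GLE1 array above each DBP5 array by little. CXCL2 was 2.90-fold lower after DBP5 siRNA (-1.53, 95% interval -1.72 to -1.35, limma adjusted p 1.3e-07) and 2.50-fold lower after GLE1 siRNA (-1.32, -1.50 to -1.14, limma adjusted p 1.9e-07). After IPPK siRNA it was 1.36-fold lower (-0.44, -0.63 to -0.26, limma adjusted p 8.9e-04), again in 3 of 3 arrays. Within slides 1, 2 and 3 the differences were -1.42, -1.44 and -1.74 for DBP5, -1.41, -1.29 and -1.26 for GLE1, and -0.47, -0.34 and -0.52 for IPPK siRNA. A dimmer CXCL2 probe was above background on 1 control array alone and at background after each knock-down, so no fold is given for it. With that probe averaged in, the IPPK difference was -1.17, which rests on values at background and is no measure of size.

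CXCL1 (NM_001511), a growth-regulated ligand of CXCR2, was at 6.49, 6.64 and 6.46 on the control arrays. It was at 5.98, 6.02 and 5.50 after DBP5 siRNA and at 6.07, 6.07 and 5.84 after GLE1 siRNA. It was at 6.78, 6.39 and 6.09 after IPPK siRNA. The DBP5 and GLE1 arrays overlapped each other and lay below control, and the IPPK arrays were scattered on both sides of control. CXCL1 was 1.62-fold lower after DBP5 siRNA (-0.70, 95% interval -1.10 to -0.30, limma adjusted p 0.00677) and 1.45-fold lower after GLE1 siRNA (-0.54, -0.94 to -0.14, limma adjusted p 0.0221). After IPPK siRNA the difference was -0.11 (-0.51 to 0.28, limma adjusted p 0.630). Within slides 1, 2 and 3 the differences were -0.51, -0.62 and -0.96 for DBP5, -0.42, -0.57 and -0.62 for GLE1, and 0.28, -0.25 and -0.38 for IPPK siRNA. The DBP5 call ended under the methods' paired test (adjusted p 0.0872, limma not used), and the authors' values gave -0.38. The GLE1 call ended under 75th percentile scaling, with the mean of probes and without control replicate 2 or GLE1 replicate 3 (limma adjusted p 0.0741, 0.136, 0.0705 and 0.0766), and the authors' values gave -0.28. A further CXCL1 probe was above background on 0 of 12 arrays, so the mean of probes includes background values.

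CXCL5 (NM_002994), a neutrophil attractant of epithelial and stromal cells, was at 9.45, 9.50 and 9.62 on the control arrays. It was at 7.81, 7.83 and 7.86 after IPPK siRNA. It was at 9.21, 9.30 and 9.19 after DBP5 siRNA and at 9.23, 9.30 and 9.25 after GLE1 siRNA. The IPPK arrays stood far below all others, and the DBP5 and GLE1 arrays overlapped each other slightly below control. CXCL5 was 3.22-fold lower after IPPK siRNA (-1.69, 95% interval -1.81 to -1.57, limma adjusted p 4.7e-09, 3 of 3 arrays), at -1.64, -1.67 and -1.76 within slides 1, 2 and 3. It was 1.22-fold lower after DBP5 siRNA (-0.29, -0.41 to -0.16, limma adjusted p 0.00120) and 1.20-fold lower after GLE1 siRNA (-0.26, -0.39 to -0.14, limma adjusted p 0.00181). These last calls ended under the methods' paired test (adjusted p 0.121 and 0.0762, limma not used). CXCL5 was 2.69-fold higher after GLE1 than after IPPK siRNA (1.43, limma adjusted p 1.0e-08) and 2.64-fold higher after DBP5 than after IPPK siRNA (1.40, limma adjusted p 3.4e-08). Between GLE1 and DBP5 siRNA the difference was 0.03 (-0.10 to 0.15, limma adjusted p 0.729).

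**Figure D2:**
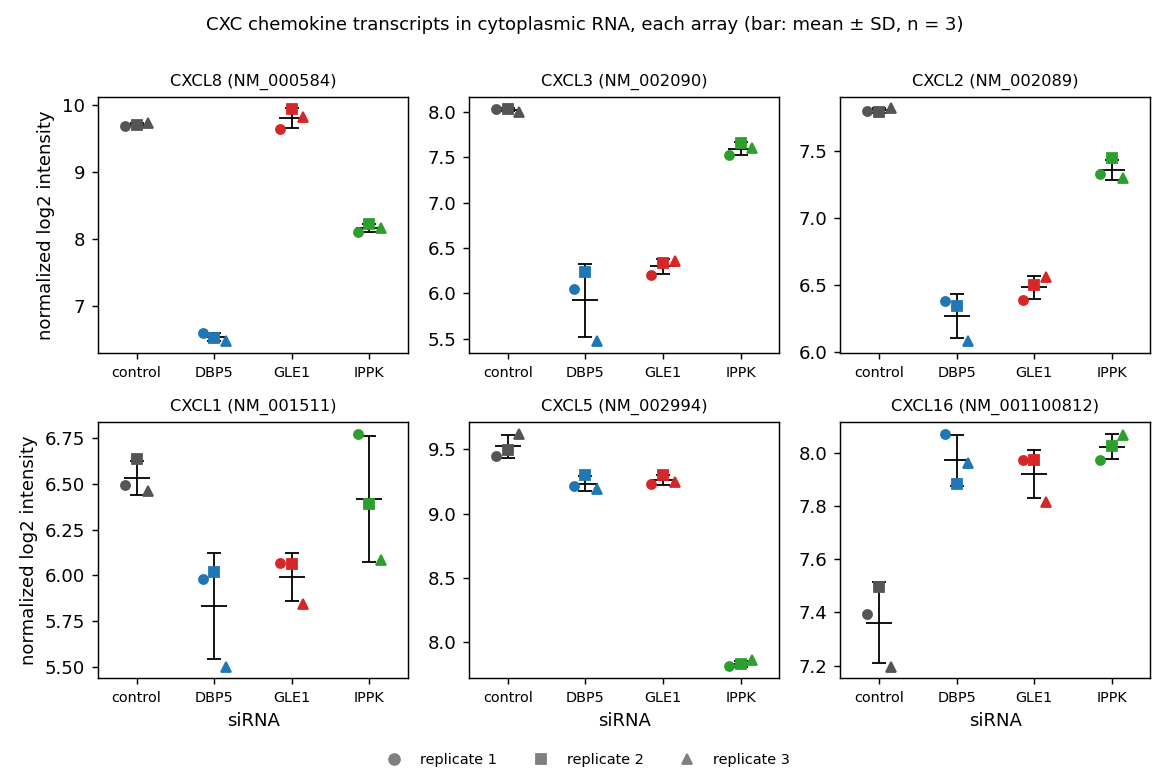
Normalized log2 intensity (vertical axis) of 6 CXC chemokine genes on each of the 12 arrays by siRNA, with marker shape for the replicate number and bars for mean ± SD (n = 3). CXCL8 is low after DBP5 and IPPK siRNA, CXCL3 and CXCL2 are low after DBP5 and GLE1 siRNA, CXCL5 is low after IPPK siRNA, and CXCL16 is lowest on the control arrays, at 7.20 to 7.50.

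CXCL6 (NM_002993), the neutrophil attractant whose promoter shares its longest stretch with that of CXCL5, was above background on 0 of 12 arrays. CXCL11 (NM_005409), an interferon-inducible ligand of CXCR3, was likewise above background on 0 arrays. CXCL10 (NM_001565), its interferon-inducible relative, has a probe above background on 0 arrays and another above background on GLE1 replicate 1 alone, at 3.92. No fold is given for CXCL6, CXCL10 or CXCL11, and whether they are absent or too dim for these probes was not tested.

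CXCL12 (NM_199168, NM_000609 and NM_001033886), which guides stem cells and lymphocytes and is made by bone stroma, has 4 probes that gave different results. The probe for NM_199168 was at 5.38, 5.13 and 5.25 on the control arrays and at 5.40, 5.26 and 5.47 after DBP5 siRNA. It was at 7.38, 7.61 and 7.49 after GLE1 siRNA and at 5.90, 5.71 and 5.73 after IPPK siRNA. The GLE1 arrays were far above all others, the IPPK arrays were above control with no overlap, and the DBP5 arrays overlapped control. Fitted as a probe of its own among 25878 probes, NM_199168 of CXCL12 was 4.71-fold higher after GLE1 siRNA than control (log2 difference 2.24, 95% interval 2.03 to 2.44, limma adjusted p 9.4e-09), where 32.5% of probes were higher. It was 1.44-fold higher after IPPK siRNA than control (0.52, 0.32 to 0.73, limma adjusted p 6.2e-04), where 27.3% of probes were higher. After DBP5 siRNA the difference was 0.12 (-0.09 to 0.32, limma adjusted p 0.316). Between DBP5 and IPPK siRNA it was -0.41 (limma adjusted p 0.00389), with -0.17 in the authors' values, a call that ended under 75th percentile scaling (limma adjusted p 0.0596). GLE1 siRNA was also 4.34-fold above DBP5 siRNA (2.12, limma adjusted p 2.9e-08), where 27.9% of probes were higher, and 3.28-fold above IPPK siRNA (1.71, limma adjusted p 8.1e-08), where 31.5% were higher. In the authors' values the GLE1 differences were 1.17 from control, 1.12 from DBP5 and 0.96 from IPPK siRNA, and the IPPK difference from control was 0.22, and these passed.

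The CXCL12 probe for NM_000609 was above background on the 3 GLE1 arrays alone, at 4.84, 5.15 and 5.10. It was at 2.40, 3.45 and 3.18 on the control arrays, at 3.29, 3.33 and 3.86 after DBP5 siRNA and at 2.74, 2.61 and 3.26 after IPPK siRNA. The GLE1 arrays therefore stood above 9 arrays that read as background. Against the lowest level called above background on those arrays, CXCL12 by this probe was at least 2.52-fold higher after GLE1 siRNA than control, at least 2.67-fold higher than after DBP5 siRNA and at least 2.03-fold higher than after IPPK siRNA. In the authors' values, which lack background subtraction, these differences of NM_000609 were 0.36, 0.30 and 0.34 on the log2 scale, smaller than the bounds. With normexp they were 0.34, 0.28 and 0.34, smaller too, so the bounds hold only for the background-subtracted levels used here. It passed the filter through the GLE1 arrays, so it had to differ from the rest.

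Both other CXCL12 probes stand for NM_001033886. The brightest, which represents CXCL12 in the counts, was at 5.99, 6.16 and 6.11 on the control arrays and at 6.34, 6.32 and 6.22 after GLE1 siRNA. It was at 5.96, 5.87 and 6.12 after DBP5 siRNA and at 6.20, 5.65 and 6.07 after IPPK siRNA. The GLE1 arrays were just above control, and the DBP5 and IPPK arrays overlapped it. The difference from control was 0.20 after GLE1 siRNA (-0.08 to 0.48, limma adjusted p 0.192), and it passed when only the 6 arrays compared were fitted (0.0380) or without IPPK replicate 2 (0.0484). It was -0.10 after DBP5 siRNA (-0.39 to 0.18, limma adjusted p 0.537) and -0.11 after IPPK siRNA (-0.39 to 0.17, limma adjusted p 0.493). By the dimmer CXCL12 probe for NM_001033886 the difference between GLE1 and control siRNA was 0.09 (-0.58 to 0.76, limma adjusted p 0.825). With the mean of the 4 probes the CXCL12 difference between GLE1 and control siRNA was 1.14, but that mean includes the probe for NM_000609, which reads as background on the control arrays and passed the filter through the GLE1 arrays, so it is no measure of size. Which transcript variants each probe binds was not tested, since the files hold no probe sequences.

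**Figure D3:**
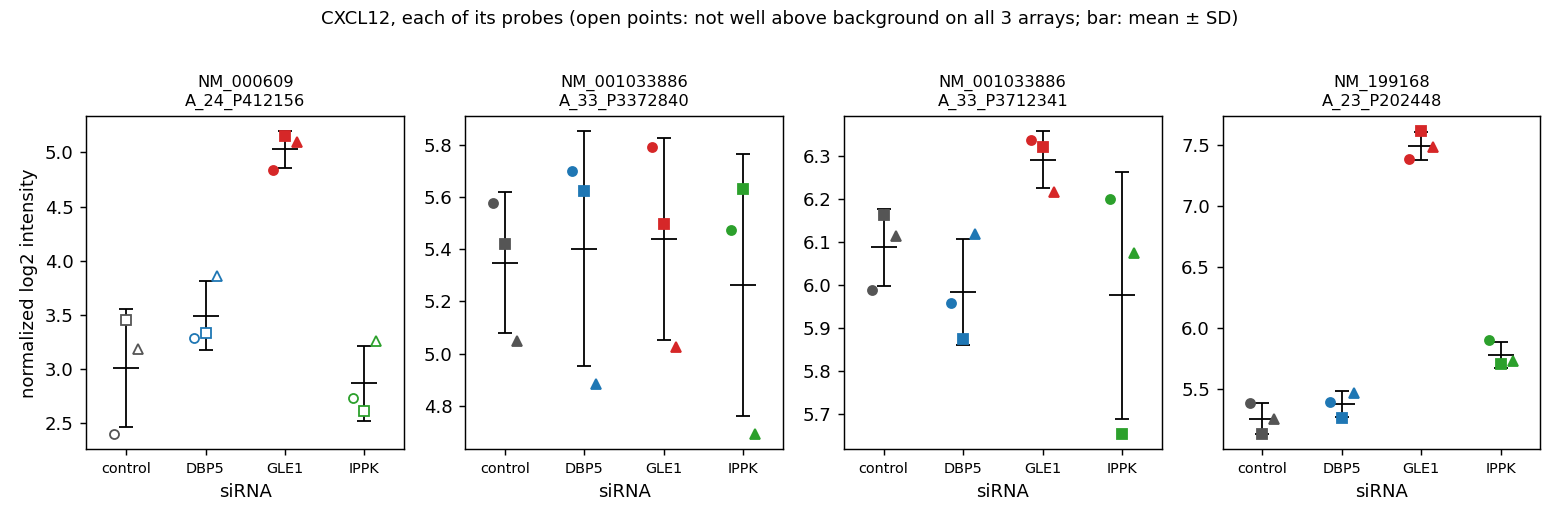
Normalized log2 intensity (vertical axis, separate scale per panel) of the 4 CXCL12 probes on each array by siRNA, with bars for mean ± SD (n = 3) and marker shape for the replicate number. Open points belong to a group not well above background on all 3 arrays. The GLE1 arrays lie at 7.38 to 7.61 for NM_199168 and at 4.84 to 5.15 for NM_000609, above the other arrays, while the panels for NM_001033886 show no such gap.

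CXCL16 (NM_001100812), a membrane-anchored chemokine that also acts as a scavenger receptor, was at 7.39, 7.50 and 7.20 on the control arrays. It was at 8.07, 7.88 and 7.96 after DBP5 siRNA. It was at 7.97, 7.97 and 7.82 after GLE1 siRNA and at 7.97, 8.03 and 8.07 after IPPK siRNA. Each knock-down array was above each control array. The DBP5 arrays overlapped those of both other knock-downs, and the GLE1 arrays lay just below the IPPK arrays. CXCL16 was 1.53-fold higher after DBP5 siRNA (0.61, 95% interval 0.42 to 0.79, limma adjusted p 1.1e-04), 1.47-fold higher after GLE1 siRNA (0.56, 0.37 to 0.74, limma adjusted p 1.6e-04) and 1.58-fold higher after IPPK siRNA (0.66, 0.47 to 0.85, limma adjusted p 6.1e-05). Within slides 1, 2 and 3 the differences were 0.68, 0.39 and 0.76 for DBP5, 0.58, 0.48 and 0.62 for GLE1, and 0.58, 0.53 and 0.87 for IPPK siRNA. The DBP5 and IPPK calls for CXCL16 ended under the methods' paired test (adjusted p 0.0844 and 0.0603, limma not used). Between knock-downs, CXCL16 differed by -0.05 for GLE1 against DBP5 (-0.24 to 0.13), by -0.10 for GLE1 against IPPK (-0.29 to 0.08) and by -0.05 for DBP5 against IPPK siRNA (-0.24 to 0.13), none past limma. In the authors' values the GLE1 difference from control was 0.36 and passed.

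Tested against each other, the knock-downs differed in 2 to 5 of the 7 genes. The counts lower and higher are given below beside the share of all genes. Both counts for GLE1 against IPPK siRNA, and the count higher for GLE1 against DBP5 siRNA, are near that share. After GLE1 siRNA, CXCL8 and CXCL2 were higher than after DBP5 siRNA, 2 of the 7, where 27.7% of genes were higher. By limma 0 of the 7 were lower, and 0 were at an unadjusted p under 0.05 or by the methods' paired test, where 27.2% of genes were lower. CXCL2 in that comparison differed by 0.21 (0.03 to 0.40, limma adjusted p 0.0489), and this call ended with the replicate number as a block (limma adjusted p 0.0551). It also ended under the methods' paired test (adjusted p 0.356, limma not used). As limma adjusted p, it ended with only the 6 arrays compared (0.125), the mean of probes (0.153), quantile normalization (0.110), normexp (0.100), the authors' values (0.0780) and no filter (0.0737), and without control replicate 1, 2 or 3 (0.0659, 0.0632 and 0.0635), DBP5 replicate 3 (0.166), GLE1 replicate 2 or 3 (0.111 and 0.153) or IPPK replicate 1, 2 or 3 (0.0598, 0.0533 and 0.0600). Against IPPK siRNA, GLE1 siRNA left CXCL8 and CXCL5 higher, 2 of the 7, where 31.2% of genes were higher. CXCL3 and CXCL2 were lower, 2 of the 7, where 29.5% of genes were lower. Their log2 differences were -1.29 for CXCL3 (limma adjusted p 3.6e-05) and -0.88 for CXCL2 (limma adjusted p 5.4e-06), and in the authors' values -0.79 and -0.49, which passed. CXCL1 differed by -0.43 between GLE1 and IPPK siRNA (-0.82 to -0.03), which did not pass (limma adjusted p 0.0611) but did with the replicate number as a block (0.0125), without DBP5 replicate 3 (0.0354) and without IPPK replicate 3 (0.0142).

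CXCL12 by its brightest probe differed by 0.31 between GLE1 and DBP5 siRNA (0.03 to 0.59, limma adjusted p 0.0617) and by 0.32 between GLE1 and IPPK siRNA (0.03 to 0.60, limma adjusted p 0.0517). The first of these passed without DBP5 replicate 3 (0.0491), IPPK replicate 1 (0.0376) or IPPK replicate 2 (0.00853) and with only the 6 arrays compared (0.0210). The other passed without IPPK replicate 1 (0.0137), under 75th percentile scaling (0.0269), quantile normalization (0.0231) and the filter on all 12 arrays (0.0438). Both passed with the mean of probes too, which includes the probe at background. CXCL12 thus stood near the threshold by this probe, in contrast to the probe for NM_199168.

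Against IPPK siRNA, DBP5 siRNA left CXCL8, CXCL3, CXCL2 and CXCL1 lower, 4 of the 7, where 24.4% of genes were lower. CXCL5 was higher, 1 of the 7, where 24.7% of genes were higher. The log2 differences were -1.67 for CXCL3 (limma adjusted p 9.7e-06) and -1.09 for CXCL2 (limma adjusted p 2.1e-06), and in the authors' values -0.98 and -0.62, which passed. Under the methods' paired test the calls for CXCL3 and CXCL1 ended (adjusted p 0.0658 and 0.104, limma not used). CXCL1 was lower by -0.58 (limma adjusted p 0.0196), a call with -0.23 in the authors' values that ended under 75th percentile scaling (0.0810), with only the 6 arrays compared (0.0757), with the mean of probes (0.0888) and without DBP5 replicate 3 (0.0747) or IPPK replicate 1 (0.0678). The median log2 difference over the 7 genes was 0.21 for GLE1 against DBP5, -0.10 for GLE1 against IPPK and -0.58 for DBP5 against IPPK siRNA, beside 0.04, 0.04 and 0.01 over all genes.

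Genes outside the family with the nearest pattern were named by the smallest root mean square difference from a member, over the 9 knock-down arrays, in the log2 difference from the control mean. Of 18413 candidates above background on all 12 arrays, SAA2 was nearest to CXCL8 (0.240), followed by CSF2 (0.395) and IL15 (0.593). SAA2 encodes an acute-phase serum amyloid, CSF2 a growth factor of granulocytes and macrophages, and IL15 a cytokine of T and natural killer cells. Nearest to CXCL2 were NOS2 (0.122), ZDHHC13 (0.138) and DGKG (0.140). Nearest to CXCL3 were DCP2 (0.302), LINC00473 (0.309) and PSMB9 (0.330). CXCL5 was nearest to the transcript ENST00000517910 (0.0783), IKZF5 (0.115) and ADAT1 (0.126), and CXCL16 to SMAD1 (0.0672), SMIM19 (0.0771) and LNPK (0.0813). CXCL1, and CXCL12 by its brightest probe, were nearest mostly to probes without a gene symbol, and SPDYE2 (0.168) was the 1 named gene among them, for CXCL1.

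Of 8 CXC receptors on the array, CXCR1, CXCR3, ACKR1 and ACKR3 were tested. CXCR2, CXCR4 and CXCR6, which bind the neutrophil-attracting ligands, CXCL12 and CXCL16 in that order, were above background on 0 arrays. CXCR1, the other receptor of the neutrophil-attracting ligands, was above background on all 12 arrays. CXCR5 was above background on 3 arrays of different siRNAs and was not tested. ACKR3, the scavenging receptor that takes up CXCL12, was at 9.60, 9.69 and 9.67 on the control arrays and at 11.99, 12.09 and 12.01 after GLE1 siRNA. It was at 10.29, 10.21 and 10.20 after DBP5 siRNA and at 10.61, 10.60 and 10.66 after IPPK siRNA. The 4 groups of ACKR3 did not overlap, with control lowest and GLE1 highest. ACKR3 rose by 2.37 after GLE1 siRNA (limma adjusted p 2.3e-10), by 0.58 after DBP5 siRNA (limma adjusted p 3.1e-06) and by 0.97 after IPPK siRNA (limma adjusted p 6.7e-08). CXCR3, the receptor of CXCL10 and CXCL11, was higher after GLE1 siRNA by 0.28 (limma adjusted p 0.0117), and with the mean of its probes by 0.08 (limma adjusted p 0.507), a mean that includes a probe above background on 0 arrays. Of the 4 receptors tested, 1 was higher after DBP5, 2 after GLE1 and 1 after IPPK siRNA (27.3%, 32.1% and 27.3% of all genes), and CXCR1 and ACKR1 did not pass limma against control, with ACKR1 nearest at 0.24 after GLE1 siRNA (0.01 to 0.47, limma adjusted p 0.0669).

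Of 7 other CXC ligands on the array, CXCL9, CXCL13, CXCL17 and PPBP were above background on 0 arrays and PF4V1 on 1 array. PF4, a platelet chemokine, did not pass against control, with its largest difference at 0.52 after IPPK siRNA (-0.03 to 1.08, limma adjusted p 0.102). CXCL14, a chemokine of epithelia, was at 11.71, 11.93 and 11.80 on the control arrays and at 11.00, 10.92 and 11.01 after IPPK siRNA. It was at 11.79, 11.54 and 11.53 after DBP5 siRNA and at 11.52, 11.59 and 11.37 after GLE1 siRNA. The IPPK arrays were the lowest, the GLE1 arrays lay below control, and the DBP5 arrays overlapped control. CXCL14 fell by 0.84 after IPPK siRNA (limma adjusted p 1.6e-05) and by 0.32 after GLE1 siRNA (limma adjusted p 0.00846), and differed by -0.19 after DBP5 siRNA (-0.39 to 0.01, limma adjusted p 0.0946). The GLE1 call for CXCL14 ended under the methods' paired test (adjusted p 0.0756, limma not used). Thus 0 of these 2 tested ligands were lower after DBP5, 1 after GLE1 and 1 after IPPK siRNA (27.1%, 30.4% and 28.2% of all genes).

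In the lists that follow, what is said to rise or fall passed limma at 0.05, and the share of all genes lower and higher stands beside each count. Among 5 proteases that process the CXC ligands, 1 was lower and 3 were higher after DBP5 siRNA (27.1% and 27.3% of all genes, median log2 difference 0.37), 0 and 3 after GLE1 siRNA (30.4% and 32.1%, median 0.49), and 2 and 2 after IPPK siRNA (28.2% and 27.3%, median 0.16). ADAM17, a sheddase that can release CXCL16 from the membrane, fell by 0.80 after DBP5 siRNA and by 0.54 after IPPK siRNA, and rose by 0.49 after GLE1 siRNA. DPP4, which trims CXCL10 and CXCL12, rose by 0.37, 1.07 and 0.37 after DBP5, GLE1 and IPPK siRNA. MMP2, a gelatinase that cleaves CXCL12, rose by 0.49 after DBP5 siRNA and by 1.26 after GLE1 siRNA, and fell by 0.79 after IPPK siRNA. The DBP5 calls for DPP4 and MMP2 ended under the methods' paired test (adjusted p 0.192 and 0.143, limma not used).

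The genes upstream of CXCL8 and its neighbours include 10 cytokines, receptors and adaptors, of which 4 were lower and 2 higher after DBP5 siRNA (27.1% and 27.3% of all genes, median log2 difference -0.13), 4 and 4 after GLE1 siRNA (30.4% and 32.1%, median 0.02), and 4 and 2 after IPPK siRNA (28.2% and 27.3%, median -0.08). IL1B, which induces CXCL8, was at 6.11, 6.32 and 6.17 on the control arrays and at 4.18, 4.29 and 4.11 after GLE1 siRNA. It read as background after DBP5 and IPPK siRNA. In the background-subtracted levels used here, its control level was thus at least 6.11-fold over DBP5 and at least 4.57-fold over IPPK siRNA. After GLE1 siRNA IL1B fell by 2.01 (limma adjusted p 1.6e-07), with 2 of 3 arrays above background. IL1B passed the filter through the control arrays alone, so its place among the lower genes was favoured by the filter. IL1A, the other interleukin 1, fell by 2.57 after DBP5 siRNA, by 0.37 after GLE1 siRNA and by 2.56 after IPPK siRNA. TNF, a further inducer, fell by 2.49, 0.65 and 2.53 in the same order, with 2 of 3 IPPK arrays above background. The list's medians do not depend on the size of the fall of IL1B, which is among its lowest genes at its bound too. They do depend on IL1B being in the list.

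Of 13 NF-kappaB factors and inhibitors, 7 were lower and 2 higher after DBP5 siRNA (27.1% and 27.3% of all genes, median log2 difference -0.34), 3 and 5 after GLE1 siRNA (30.4% and 32.1%, median 0.11), and 5 and 6 after IPPK siRNA (28.2% and 27.3%, median 0.11). The GLE1 counts are near the share of all genes. TNFAIP3, a feedback inhibitor of the pathway that induces CXCL8, fell by 1.08 after DBP5 siRNA and by 0.28 after IPPK siRNA, and rose by 0.68 after GLE1 siRNA. NFKBIE, an inhibitor that holds NF-kappaB in the cytoplasm, fell by 0.34 after DBP5 and by 0.72 after IPPK siRNA, and rose by 0.63 after GLE1 siRNA. NFKBIZ, a nuclear co-activator of a subset of NF-kappaB targets, fell by 0.42 after DBP5 and by 1.16 after GLE1 siRNA, and rose by 0.27 after IPPK siRNA. Under the methods' paired test the IPPK calls for TNFAIP3 and NFKBIZ and the DBP5 call for NFKBIE ended (adjusted p 0.0538, 0.0532 and 0.0773, limma not used). Among factors of the interferon response, which drives CXCL10 and CXCL11, IRF3 fell by 0.25, 0.75 and 0.43 after DBP5, GLE1 and IPPK siRNA, and STAT2 fell by 0.83 after DBP5 siRNA and rose by 0.36 after GLE1 and by 0.20 after IPPK siRNA. The DBP5 call for IRF3 was kept under 12 of 22 alternatives, and its IPPK call ended under the methods' paired test (adjusted p 0.0666, limma not used).

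Of 7 RNA-binding proteins listed for a part in the decay or stability of short-lived mRNAs such as that of CXCL8, 2 were lower and 5 higher after DBP5 siRNA (27.1% and 27.3% of all genes, median log2 difference 0.37), 3 and 4 after GLE1 siRNA (30.4% and 32.1%, median 0.35), and 2 and 1 after IPPK siRNA (28.2% and 27.3%, median -0.04). ZC3H12A, a ribonuclease that degrades inflammatory mRNAs, fell by 1.22, 0.92 and 1.33 after DBP5, GLE1 and IPPK siRNA. ZFP36, a destabilizer of such mRNAs, fell by 0.72, 0.91 and 0.47 in the same order. KHSRP, a further decay factor, rose by 0.69 after DBP5 siRNA and by 0.71 after GLE1 siRNA. The DBP5 call for KHSRP ended with only the 6 arrays compared (limma adjusted p 0.0566) and without DBP5 replicate 2 (limma adjusted p 0.0519). Under the methods' paired test the DBP5 calls for KHSRP and ZFP36 ended (adjusted p 0.214 and 0.0633, limma not used).

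**Figure D4:**
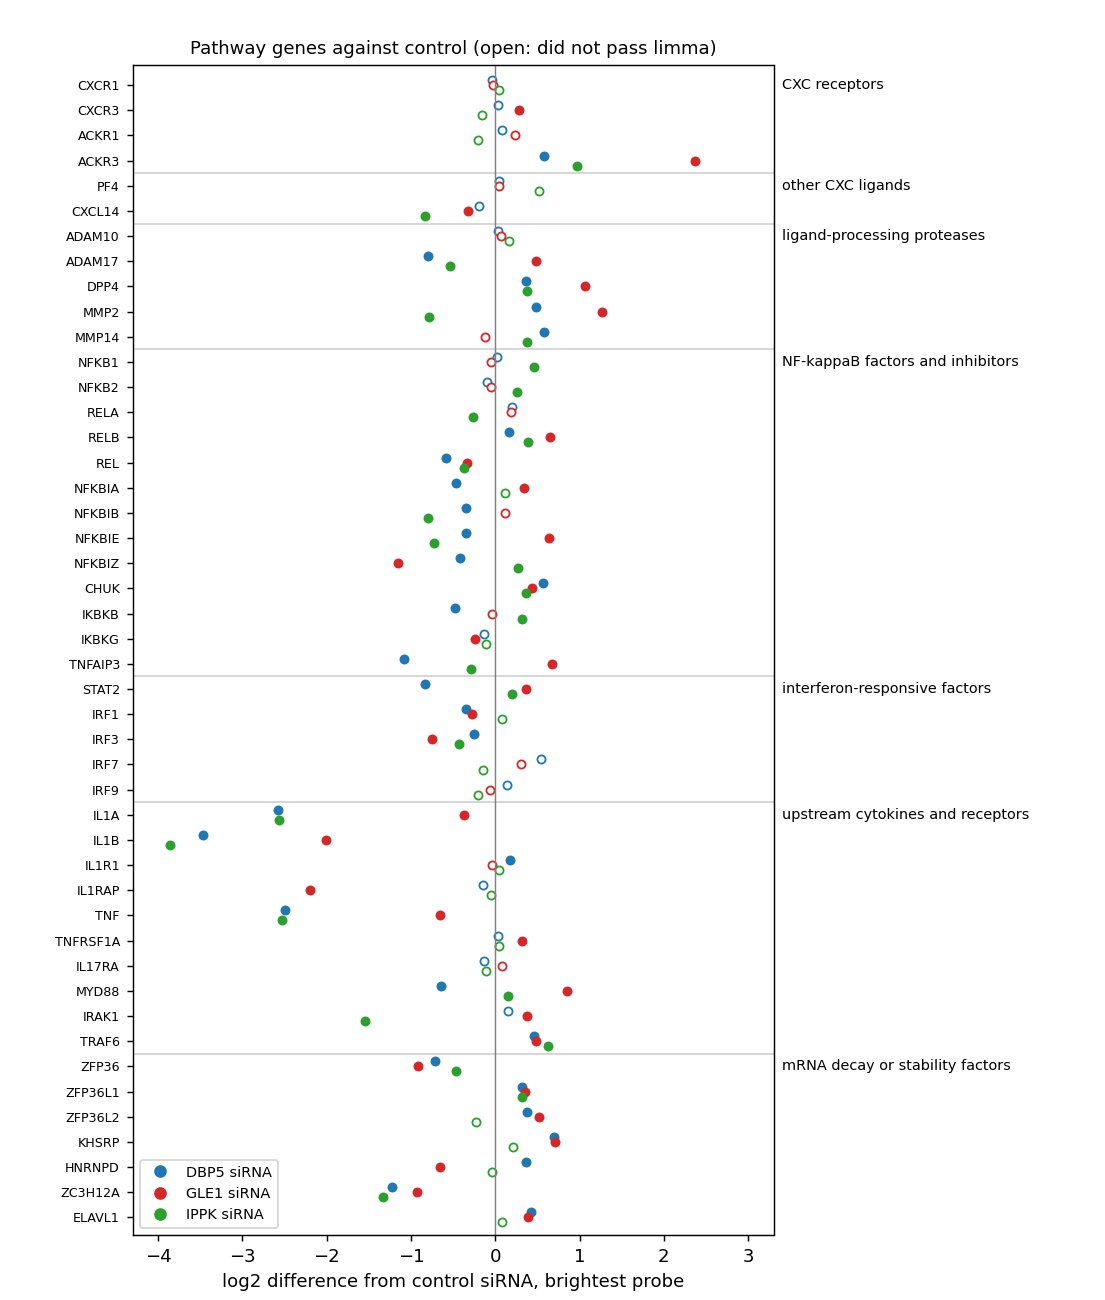
Log2 difference from control siRNA (horizontal axis) of the tested genes reported here from the pathway lists around the CXC chemokines, by siRNA (n = 3 arrays each). Open points did not pass limma. ACKR3 is highest after GLE1 siRNA, at 2.37, and IL1A and TNF lie near -2.5 after DBP5 and IPPK siRNA, while IL1B reads as background there, so its points at these siRNAs are no measure of size.

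Markers of the cell line and of other cell types were read on the same arrays. All 6 mesenchymal and osteoblast markers were on the array, 5 or 6 of them above background per array, with VIM the brightest and a summed intensity of 219950 to 349992. Of them, 2 were lower and 1 higher after DBP5 siRNA, 1 and 0 after GLE1 siRNA, and 3 and 0 after IPPK siRNA. Of all genes, 27.1% were lower and 27.3% higher after DBP5, 30.4% and 32.1% after GLE1, and 28.2% and 27.3% after IPPK siRNA, beside which these and the marker counts below are to be read. COL1A1 fell by 0.36 after DBP5 siRNA (limma adjusted p 0.00375). It fell by 1.98 after IPPK siRNA (limma adjusted p 2.0e-08), a larger log2 fall than that of CXCL5 or CXCL8 after IPPK siRNA. RUNX2 fell by 0.71 after IPPK siRNA (limma adjusted p 4.0e-04), a call that ended with the mean of its probes (limma adjusted p 0.340). COL1A2 read as background after DBP5 and IPPK siRNA, so the size of its fall is not given, and its IPPK call ended in the authors' values (limma adjusted p 0.0783) and its DBP5 call under the methods' paired test. COL1A2 passed the filter through the control arrays alone, so its place among the lower markers was favoured by the filter. Among leukocyte markers CD14 was the brightest, with means of 6.99 to 7.11 per siRNA, and ITGAM rose by 0.46 after IPPK siRNA (limma adjusted p 6.0e-04), a call that ended under 75th percentile scaling (limma adjusted p 0.0535) and the methods' paired test. The 3 endothelial markers, 2 or 3 above background per array, had a sum of 178 to 338 with CDH5 the brightest, and 1 was lower after DBP5 siRNA, 1 higher after GLE1 siRNA and 2 lower after IPPK siRNA. VWF fell by 0.43 after DBP5 siRNA (limma adjusted p 0.00130) and by 0.70 after IPPK siRNA (limma adjusted p 3.8e-05), and rose by 0.54 after GLE1 siRNA (limma adjusted p 2.0e-04), and the DBP5 call ended under the methods' paired test. The other lower gene after IPPK siRNA, PECAM1, was above background on 1 control array and on 0 IPPK arrays, and its call was kept under 12 of 21 alternatives. PECAM1 passed the filter through the GLE1 arrays alone, so the size of its fall is not given. The 3 epithelial markers, 2 or 3 above background per array, had a sum of 347 to 935 with EPCAM the brightest, and 2 were lower and 1 higher after DBP5 siRNA, 0 and 2 after GLE1 siRNA, and 2 and 1 after IPPK siRNA. EPCAM fell by 0.61 and 0.92 and KRT19 by 0.23 and 0.52 after DBP5 and IPPK siRNA, and KRT19 rose by 0.84 after GLE1 siRNA. The DBP5 calls for EPCAM and KRT19 were kept under 14 and 11 of 22 alternatives. The IPPK call for EPCAM ended under the methods' paired test (adjusted p 0.164, limma not used). CDH1 read as background on the control arrays. In the background-subtracted levels used here, it was at least 8.40-fold higher after GLE1 siRNA and at least 1.63-fold higher after DBP5 siRNA. After IPPK siRNA it was at least 2.07-fold higher, with 2 of 3 arrays above background. CDH1 passed the filter through the DBP5 and GLE1 arrays, so it had to differ from control there. Its DBP5 difference was 0.18 with normexp, smaller than the bound, and the call ended (limma adjusted p 0.0526). Under the methods' paired test its DBP5 and IPPK calls ended (adjusted p 0.0990 and 0.0900, limma not used). The part of these markers in the differences of CXCL8 and the other members was not tested.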

How the data were processed

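Cytoplasmic RNA of 12 samples was measured on one-colour Agilent arrays, 3 per siRNA. The deposited scanner files give an intensity for each spot, before and after subtraction of the local background. The authors also deposited a table in log2 units, which tracks the uncorrected median spot intensity on the log2 scale (r at least 0.9998 across probes). Here, log2 values of the background-subtracted intensity were normalized by cyclic loess, the 169 to 358 outlier spots per array were left out, and spots of a probe were averaged. RefSeq accessions (GRCh38.p14) named 26449 of 34127 probes (77.5%), which matched 16 probes to the members. Each of 27522 gene names was represented by its brightest probe, and 20821 names passed a filter that asked for 3 of 3 arrays of some siRNA above background. They were tested with limma 3.58.1 in R 4.3.3, with Benjamini-Hochberg adjustment per comparison at 0.05. Figures were drawn with matplotlib 3.10.9 and pandas 2.3.3 in Python 3.11.15.

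The members and lists were chosen with earlier results of these data known. Named genes are every member, each tested receptor and other CXC ligand, the siRNA targets, up to 3 genes per remaining list with the largest mean absolute difference from control, and the 3 nearest patterns per member. A gene each of the interferon list and the leukocyte list is not reported here, nor are the counts of these lists. CXCR2, CXCR4, CXCR5, CXCR6, CXCL9, CXCL13, CXCL17, PPBP and PF4V1, named as below background, and the marker genes VIM, CD14 and CDH5, named as the brightest of their lists, were chosen after their values were seen. Replicate numbers come from the sample labels and mark the slide. In deviations from group means, same-numbered arrays of different siRNAs correlated at 0.318 to 0.513 across genes (18 pairs) and other pairs at -0.285 to -0.0493 (36 pairs), so the numbers pair the arrays.

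Alternatives were 75th percentile scaling, quantile normalization, normexp (offset 50, on the median spot signal), the authors' values, no filter, a filter that asks for all 12 arrays, averaged probes, every probe fitted separately, the replicate number as a block, a fit to the 6 arrays compared, leaving out 1 array at a time, and the methods' paired test. The methods' paired test is the two-sided paired t-test of their general statistics, run on 3 pairs per gene with Benjamini-Hochberg adjustment. For the arrays the methods describe rank-product gene lists and a fold cut, which were not run here. The same alternatives, where they apply, were run for the CXCL12 probes and for the named genes of the other lists, a choice made after seeing the data.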

Additional observations from a re-analysis of the deposited data

How the results depend on the processing

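Of 42 differences of the tested members, 27 passed the threshold, and 17 of these kept their direction and call under every alternative run. Over 1110 values of members and CXCL12 probes, 1039 kept both, 43 lost the call, 19 gained one and 9 turned. The 1039 include values that passed in neither setting. They also include alternatives that leave the log2 difference as it was, so they are no measure of how firm the calls are. Of 76 calls of the other named genes, 51 were kept under every alternative, while 13 ended under one other than the methods' paired test. That test gave 3 genes lower and 0 higher after DBP5 siRNA, 0 higher after IPPK siRNA and 2 lower for DBP5 against IPPK siRNA. For GLE1 against control siRNA, 2 were higher with the mean of probes, each probe on its own or only the 6 arrays compared, and 1 to 2 with 1 array left out. For IPPK against control siRNA, 2 were higher with each probe on its own. For GLE1 against DBP5 siRNA, 1 was higher with quantile normalization, normexp, the authors' values, no filter, the replicate block and the methods' paired test, and 1 to 3 with 1 array left out. Member values that turned had not passed: with 1 array left out, CXCL1 ran from -0.29 to 0.052 for IPPK against control siRNA (highest without IPPK replicate 3) and from -0.0068 to 0.25 for GLE1 against DBP5 siRNA (lowest without DBP5 replicate 3). CXCL12 became 0.14 for DBP5 and 0.046 for IPPK against control siRNA with the mean of probes, which includes a probe at background, and -0.22 to 0.050 for IPPK with 1 array left out (highest without IPPK replicate 2). For DBP5 against IPPK siRNA, CXCL12 became -0.012 with normexp, -0.0028 in the authors' values and -0.15 to 0.12 with 1 array left out (-0.060 without DBP5 replicate 3, lowest without IPPK replicate 2). The cause was not tested. Signal over background limits CXCL6, CXCL10 and CXCL11.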
